A study of Mus musculus with 21 samples.

Results

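Cells make cholesterol and fatty acids from acetyl-CoA by dedicated enzyme series, and 30 genes of these series were described here in mouse taste buds. They were 6 enzymes of the mevalonate and isoprenoid steps, 11 enzymes from squalene to cholesterol, 5 genes of the SREBP control system, 7 genes of fatty acid synthesis and the sterol carrier gene Stard4. A gene was measured through the locus of the deposited table that holds its exons in the authors' merged annotation. Of the 30 genes, 29 were found in this way, among 32052 loci in all. Mvd, the mevalonate diphosphate decarboxylase gene, was not matched by name, so its level was not analysed here, while its RefSeq promoter is among those read below. Of the 29 loci, 18 held exons of 1 gene and 11 also held other genes.

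The RNA came from dissected circumvallate papillae, the trench-shaped taste papilla at the back of the tongue, labelled as circumvallate taste bud. In every group the mice were of the inbred C57BL/6J strain, wild type in genotype and 20 to 24 weeks old. The labels give 21 libraries of oligo(dT)-primed cDNA, 7 each in groups named Ad lib, Satiated and Hungry, and the series asks how these states differ. The deposited table holds the same 5 values at every locus for its 3 conditions, with 0 loci that differ. Every level below is therefore the authors' mean over libraries of all groups, and no difference between Ad lib, Satiated and Hungry could be computed for any gene. The table holds no value per library, so no level comes with an error or a test of its own.

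Levels are mean compatible fragments, that is, size-factor-scaled fragments that match an annotated transcript of the locus. They sum to 21881979 over all loci, against 23769781 for total fragments, which also include fragments that match no annotated transcript. The spread is given as a coefficient of variation (CV), the square root of the authors' variance over the mean. This variance is taken within sets of libraries. Among loci with fragments in 1 library, the variance matched a set of 6 libraries at 454 loci, of 7 at 667 loci and of 8 at 474 loci, and a set of 3 at 1 locus. Differences between the sets are not in the variance, and which set is which group is not known. As a check of the tissue, all 8 taste bud cell markers were detected, beside 42% of all 32052 loci. They were led by Krt8 at 37058 and Gnat3 at 24576 compatible fragments. The tissue is a mixture, so fewer cells of a type and less RNA per cell cannot be told apart in any level given here.

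In the mevalonate pathway, acetyl-CoA units are joined and reduced to isoprenoid building blocks, which are condensed to squalene, closed to lanosterol and trimmed to cholesterol. When sterol in the endoplasmic reticulum is low, SCAP escorts the membrane-bound SREBP factors to the Golgi, where proteases release their active part. Insig proteins hold SCAP back when sterol is plentiful. SREBP-2, the product of Srebf2, is known for driving sterol genes, and SREBP-1, the product of Srebf1, for driving fatty acid genes.

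All 29 synthesis genes were detected at a mean of at least 10 compatible fragments, beside 42% of all 32052 loci, noncoding ones included. Each of the 29 loci reached 500 fragments, as did 6816 of all 32052 loci. Levels ran from 694 at the Mvk locus to 21646 at the Scd2 locus. Since fragment numbers grow with transcript length, genes are compared with each other only per kilobase (kb) of merged exon. The 18 genes alone at their locus summed to 74345 compatible fragments, or 0.340% of all compatible fragments.

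**Figure D1:**
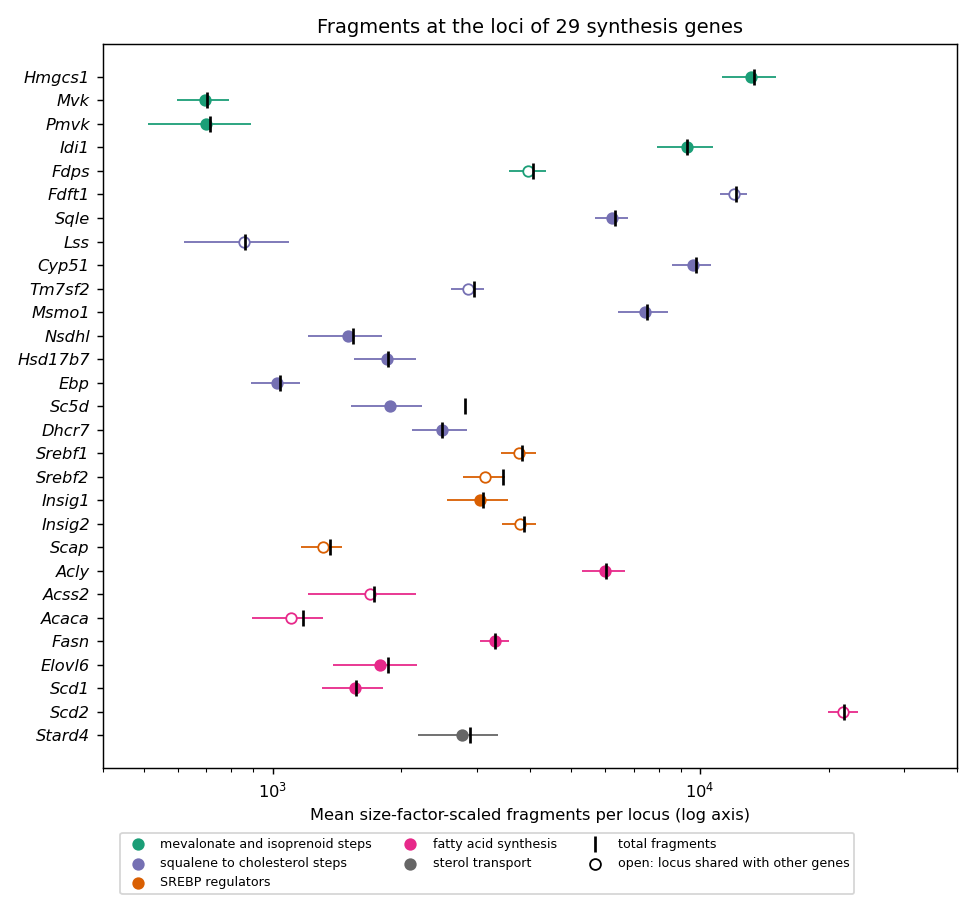
Mean size-factor-scaled fragments (log axis) at the loci of 29 synthesis genes, coloured by role. Circles are compatible fragments with a bar of 1 SD from the authors' variance, open where the locus holds other genes, and black ticks are total fragments. The Scd2, Hmgcs1 and Fdft1 loci lie furthest right, and Sc5d has the widest gap between circle and tick.

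The mevalonate and isoprenoid enzymes held both ends of the range per kb among the genes alone at their locus, with 4066 for Hmgcs1 and 259.5 for Mvk. Hmgcs1 encodes the HMG-CoA synthase that feeds the pathway and lies on chromosome 13 at 119690462 to 119708086 (GRCm38.p4). It had 13146 compatible fragments with a CV of 0.144. Idi1, which isomerises isopentenyl diphosphate, had 9319.7 fragments with a CV of 0.150, or 2659 per kb. Both kinases between these steps were lower per kb. Mevalonate kinase, Mvk, had 694 fragments (CV 0.139), and phosphomevalonate kinase, Pmvk, had 699.9 (CV 0.271) and 462 per kb. Fdps, farnesyl diphosphate synthase, had 3957 fragments (CV 0.0993), at a locus that also holds the small nuclear RNA gene Gm22935.

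In the steps from squalene to cholesterol, Cyp51, Msmo1 and Sqle stood highest per kb among the 8 genes alone at their locus, with 2243, 1210 and 1122. Fdft1, squalene synthase, had 11990 fragments (CV 0.0723), but its locus also holds the coding gene Ctsb, a lysosomal protease, and the value cannot be assigned to either gene. Cyp51, the lanosterol demethylase on chromosome 5 at 4081145 to 4104746, had 9613 fragments (CV 0.105). Msmo1, the sterol methyl oxidase on chromosome 8 at 64718139 to 64733792, had 7432 fragments (CV 0.134). Sqle, the squalene epoxidase on chromosome 15 at 59315077 to 59331192, had 6220.2 fragments (CV 0.0885).

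The other 5 of these 8 genes ran from 364 per kb for Hsd17b7 to 807 for Sc5d. Dhcr7, the dehydrocholesterol reductase of the last step, had 2484 fragments (CV 0.147). Sc5d, the sterol desaturase before it, had 1878 (CV 0.188), and Hsd17b7, a ketoreductase, had 1856 (CV 0.166). Nsdhl, the sterol dehydrogenase that acts with Msmo1, had 1504 fragments (CV 0.196), and the sterol isomerase gene Ebp had 1026 (CV 0.130). Nsdhl and Ebp both lie on the X chromosome. Lanosterol synthase, Lss, had 857 fragments (CV 0.274) with the antisense gene 4930483K19Rik in its locus. The sterol reductase gene Tm7sf2 had 2866 (CV 0.0878), at a locus that also holds the coding genes Vps51, Zfpl1, BC048609 and Gm28374.

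Among the control genes, only Insig1 is alone at its locus, on chromosome 5 at 28071363 to 28078662. This sterol-sensing anchor of SCAP had 3053 fragments with a CV of 0.164. The locus of its relative Insig2 had 3785 (CV 0.0915). The Srebf1 locus, with the coding gene Rai1, had 3775 fragments (CV 0.0931). The Srebf2 locus, with the microRNA gene Mir33, had 3142 (CV 0.114), and the Scap locus had 1309 (CV 0.109). Insig2 and Scap share their loci with transcripts of no known product.

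In fatty acid synthesis, the Scd2 locus had 21646 fragments (CV 0.0795), on chromosome 19 at 44293676 to 44306864. Scd2 encodes a stearoyl-CoA desaturase, and its locus also holds the microRNA gene Mir5114. Scd1, another desaturase gene of the same chromosome, had 1558 fragments (CV 0.161). Per kb of exon the Scd2 locus was 12.3-fold above Scd1. These desaturase genes are close in sequence, and how fragments that match both were counted upstream is not stated in these sources. Acly, which makes cytosolic acetyl-CoA from citrate, had 5986 fragments (CV 0.116) on chromosome 11 at 100476353 to 100528000.

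Fasn, the fatty acid synthase, had 3311 fragments with a CV of 0.0792, the lowest of the genes alone at their locus, on chromosome 11 at 120805940 to 120824178. Elovl6, the elongase that extends its product, had 1783 (CV 0.222). Acaca encodes the acetyl-CoA carboxylase ahead of Fasn, and its locus had 1103 fragments (CV 0.189) together with the coding gene Gm11437. Acss2, which makes acetyl-CoA from acetate, had 1686 fragments (CV 0.283) at a locus with the coding genes Ggt7 and Gss, the latter glutathione synthetase. Stard4, a soluble sterol carrier, had 2781 fragments (CV 0.212).

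In the order per kb of the 18 genes alone at their locus, Hmgcs1, Idi1, Cyp51 and Msmo1 came at the top. At the lower end stood Fasn with 336 per kb, Scd1 with 322, Elovl6 with 299.6 and Mvk with 259.5. Hmgcs1 was 15.7-fold above Mvk. All 18 genes lay above the median of 154 per kb over 7508 detected protein-coding genes alone at their locus, beside 50% of those genes by construction. Those 4 genes at the top were also the ones above the 90th percentile of 1137 per kb, beside 10% of all such genes by construction.

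Neighbours in this order were compared by 1 SD, which is the spread of libraries within sets and not the error of a mean. Overlap therefore does not show whether the order of a pair is resolved. Of 17 neighbouring pairs, 14 overlapped within 1 SD of each. The exceptions were Hmgcs1 above Idi1, Cyp51 above Msmo1 and Sqle above Sc5d. Acly, Insig1 and Sqle stood at 1134, 1132 and 1122 per kb, closer together than their spread. The length used moved Msmo1 most: with the longest transcript in place of the merged exons it had 2503 per kb, 2.07-fold more. That placed Msmo1 above Cyp51, which then had 2445, so the order of this pair depends on the length used.

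**Figure D2:**
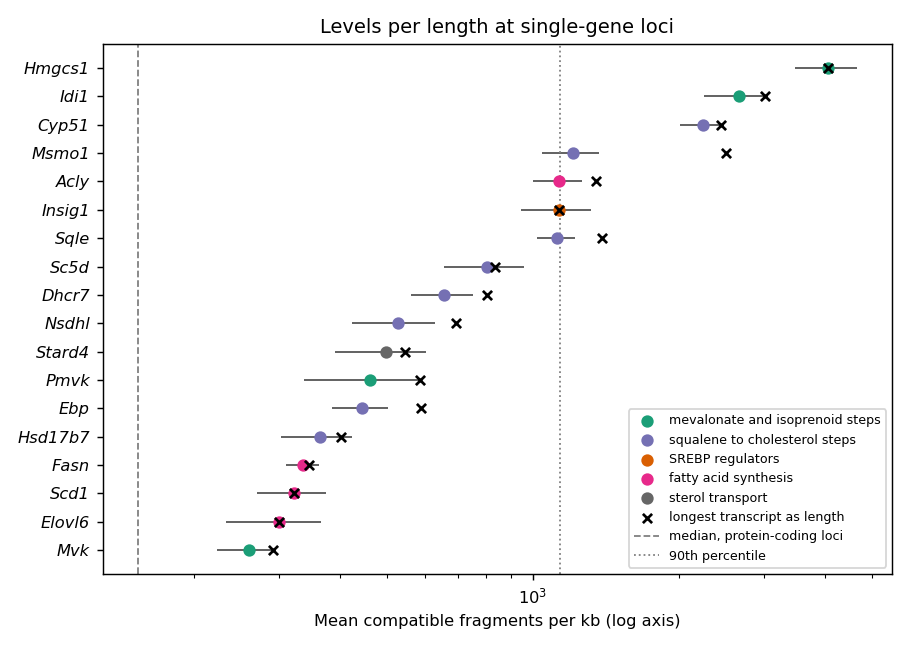
Mean compatible fragments per kb of merged exon (log axis) of the 18 synthesis genes alone at their locus, coloured by role, with a bar of 1 SD from the authors' variance. Crosses use the longest transcript as length, and vertical lines mark the median of 154 and the 90th percentile of 1137 over 7508 protein-coding genes. All 18 genes lie right of the median, and the cross of Msmo1 stands furthest from its point.

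By role, the median per kb was 1561 over the 4 mevalonate and isoprenoid genes, 732 over the 8 genes from squalene to cholesterol and 329 over the 4 fatty acid genes. The first median lies in a gap between Pmvk at 462 and Idi1 at 2659 per kb, and the ranges of the 3 roles overlap. Among the fatty acid genes, Fasn, Scd1 and Elovl6 stood within 299.6 to 336 per kb, and Acly was higher at 1134. Genes at shared loci are not in these medians, among them Scd2, whose locus stood at 3970 per kb of Scd2 exon.

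SREBP factors bind a sterol response element, and the RefSeq promoters of the genes were read for a short form of its core, TCACNCCA, on both strands. A RefSeq promoter here is 250 bases before to 50 after a transcript start (GRCm38.p6). The table held 32 promoters of 24 of the 30 genes, and none for Sqle, Scd1, Scd2, Fdft1, Fdps and Stard4. The core was found in 3 of the 24 genes, Hmgcs1, Msmo1 and Srebf2, beside 4.97% of all 27025 genes with a promoter. By promoter it was found in 3 of the 32, beside 4.36% of all 32851 promoters. The stretches below carry these 3 matches. Capitals mark the core and each CCAAT, the box bound by the SREBP partner NF-Y, which reads ATTGG on the opposite strand. Hmgcs1 and Srebf2 are shown up to the first annotated exon. In Msmo1 the match lies in the first exon of a longer annotated transcript, and 30 bases around it are shown.
Hmgcs1, chr13:119690101-119690350, plus strand: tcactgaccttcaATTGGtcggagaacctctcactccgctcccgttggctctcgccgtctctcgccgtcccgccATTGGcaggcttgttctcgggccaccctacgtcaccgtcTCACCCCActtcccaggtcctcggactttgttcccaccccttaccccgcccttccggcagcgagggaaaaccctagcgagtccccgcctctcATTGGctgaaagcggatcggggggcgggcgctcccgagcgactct
Srebf2, chr15:82147019-82147180, plus strand: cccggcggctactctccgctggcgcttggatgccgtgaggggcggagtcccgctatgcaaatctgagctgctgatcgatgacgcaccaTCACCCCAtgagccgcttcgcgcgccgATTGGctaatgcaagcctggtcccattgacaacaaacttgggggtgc
Msmo1, chr8:64733730-64733759, minus strand: attcTCACTCCAtccgcgcagCCAATgact

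Counted from the RefSeq start, the core stood at position -137 in Hmgcs1, -162 in Srebf2 and -177 in Msmo1. The nearest CCAAT began 39 bases away in Hmgcs1, 27 in Srebf2 and 17 in Msmo1. Per kb of merged exon, Idi1 and Cyp51, which had no core match in this window, stood between Hmgcs1 and Msmo1. With the longest transcript as length, Msmo1 stood above Cyp51, at 2503 against 2445 per kb. Whether the core bears on level was not tested. A promoter with both core and CCAAT occurred in 1.67% of all promoters. The stricter TCACCCCA was found in 2 of the 24 genes, beside 1.77% of all genes and 1.56% of promoters. The shifted form CACNCCAC, which can overlap it, was found in 2 genes, beside 7.12% of all genes and 6.24% of promoters.

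CCAAT on either strand was found in 21 of the 24 genes, against 41.1% of all genes, and in 22 of their 32 promoters, against 37.4% of all promoters. Among genes with a measured level it was found in 20 of 23 synthesis genes and in 42.5% of 5620 detected protein-coding genes alone at their locus. The 23 also include synthesis genes at shared loci. Mvk had 5 matches, Hmgcs1 and Nsdhl had 4 each, and Fasn, Hsd17b7, Msmo1 and the outermost promoter of Insig2 had 3 each. Acaca, Elovl6 and Scap had 0 in this window. The GC box GGGCGG, a match for SP1-type factors, was found in 20 of 24 genes, beside 38.2% of all genes and 35.7% of promoters. It was found in 19 of 23 genes with a level against 66% of detected genes. The E-box CACGTG was found in 5 of 24 genes, namely Dhcr7, Hsd17b7, Insig1, Sc5d and Scap, beside 8.09% of all genes and 7.15% of promoters. It was found in 5 of 23 genes with a level against 11.4% of detected genes. Matches describe letters only. Of 31 promoters of genes present in the merged annotation, 26 start within 100 bases of an annotated start. The others start 105 bases away in Idi1, 111 in Hmgcs1, 232 in Dhcr7, 369 in Fasn and 4577 in Pmvk. That Dhcr7 promoter holds the E-box of this gene, and that Pmvk promoter its only CCAAT. All of them are in the counts above.

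**Figure D3:**
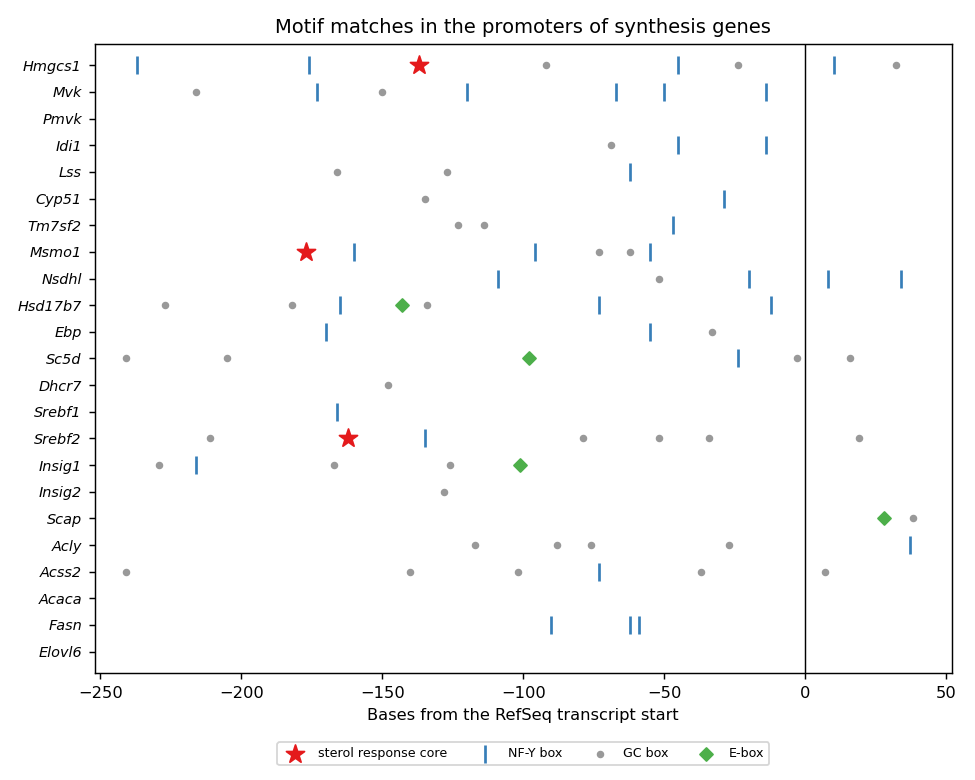
Motif matches on either strand by distance in bases from the RefSeq transcript start, for 23 synthesis genes with a level, each with its promoter nearest an annotated start. Stars mark the sterol response core, blue ticks the NF-Y box, grey points the GC box and green diamonds the E-box. Stars appear in Hmgcs1, Msmo1 and Srebf2 only, and blue ticks in most genes.

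Nearly all fragments at these loci matched annotated transcripts. The median compatible share was 98.6% over the 18 genes, beside 95.5% over all 8696 detected loci that hold 1 gene. Over the 3844 such loci between 500 and 15000 fragments, the range that holds the 18 genes, it was 97.3%. Among the 18, Idi1 and Hsd17b7 stood highest at 99.9%, as did the shared Scd2 locus. Sc5d stood apart at 66.7%, with 1878 compatible of 2815 total fragments. Its exons in GENCODE M21, a later annotation, include 2582 bases that the merged annotation lacks. Hmgcs1 lacks 1361 such bases and kept a share of 98.3%. The next lowest shares were at the Srebf2 locus with 90.6% and the Acaca locus with 93.5%. Whether missing exons set these shares was not tested.

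The merged annotation holds 192 transcripts of the 29 genes, of which 32 are isoforms added by the authors' assembly. At least 1 new isoform was present in 13 of the 29 genes, beside 39.3% of 7508 detected protein-coding genes alone at their locus. The 13 include genes at shared loci, which that share leaves out, so the sets are unlike. Among the synthesis genes alone at their locus, only Mvk, Cyp51, Msmo1, Nsdhl, Hsd17b7, Ebp and Dhcr7 had a new isoform. Insig2 had 24 transcripts with 5 new ones, Srebf1 had 17 with 4, Dhcr7 had 15 with 5, and Acaca had 15 with 4. A lone transcript was annotated for 9 of the genes, among them Hmgcs1, Insig1, Elovl6 and Scd1. Srebf1 had 11 annotated starts, Insig2 8, and Dhcr7 6.

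The spread between libraries was compared with the variance the authors fitted for a locus of the same level, as the log2 ratio of variance to fitted variance. It was above the fitted variance at 4 of the 18 genes, beside 27.6% of 8696 detected loci with 1 gene. Those 4 were Stard4 with a ratio of 0.59, Elovl6 with 0.48, Pmvk with 0.24 and Sc5d with 0.03. The median over the 18 was -0.41, beside -0.62 over all such loci, and -0.74 over the 3844 loci between 500 and 15000 fragments. Fasn had the lowest ratio, -2.19, followed by Sqle with -1.71, Mvk with -1.68, Ebp with -1.48 and Cyp51 with -1.21. The median CV was 0.149, beside 0.158 over the same range of levels.

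How many genes stood above depended on the reference. Against a running median of the variance over 101 loci of like level, 12 of the 18 genes were above, beside 49.6% of loci, and their median was 0.28. Hmgcs1 then moved from -0.32 to 0.73 and Idi1 from -0.17 to 0.93, whereas Fasn stayed low at -1.38, Sqle at -0.98 and Ebp at -0.91. Stard4, Elovl6, Pmvk and Sc5d were above under both references, with 1.33, 1.16, 0.96 and 0.63 against the running median. Mvk and Pmvk had nearly the same level and stood on opposite sides, with CVs of 0.139 and 0.271.

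**Figure D4:**
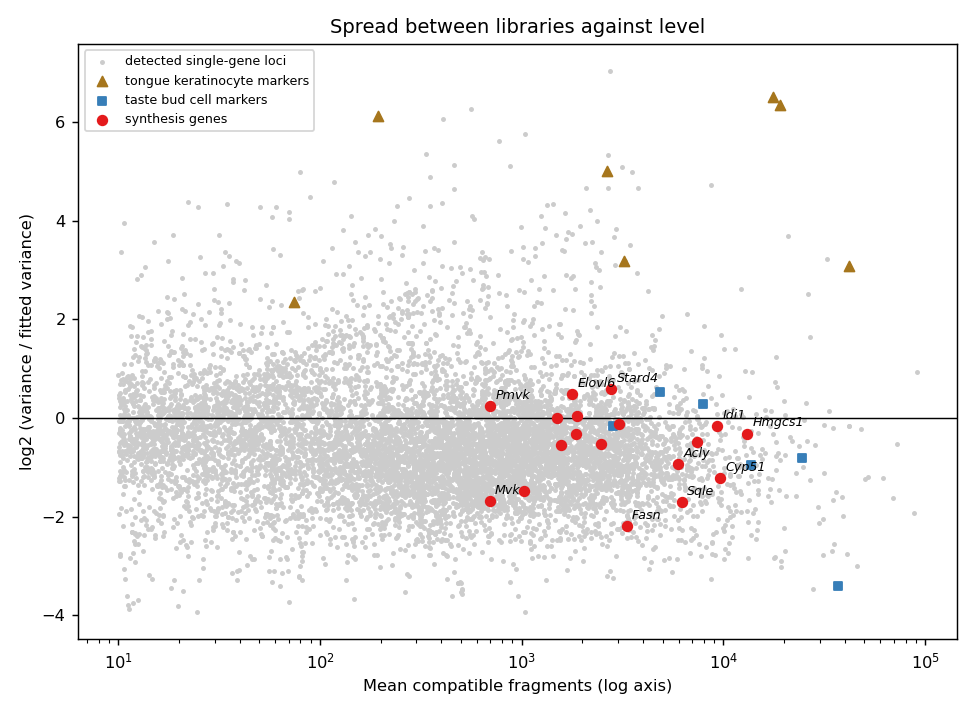
Log2 ratio of the authors' variance to their fitted variance against mean compatible fragments (log axis). Grey points are detected loci with 1 gene, red circles the 18 synthesis genes, blue squares taste bud cell markers and brown triangles tongue keratinocyte markers. Synthesis genes lie between -2.19 and 0.59, and the keratinocyte markers lie above them.

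At the loci shared with other genes the spread belongs to the whole locus. Of these 11, Acss2 at 1.15 and Lss at 0.49 were above the fitted variance, beside 27.6% of detected loci with 1 gene. The share over all shared loci was not computed. The Fdft1 locus at -2.30, Scd2 at -2.19 and Tm7sf2 at -1.95 were far below, as were Scap at -1.79, Insig2 at -1.72, Srebf1 at -1.67, Fdps at -1.46 and Srebf2 at -1.16. Acaca at -0.35 was nearer the fitted variance. Over all 29 loci, 8 had a CV under 0.10, beside 10.8% of 6816 loci of at least 500 compatible fragments. That share is not matched for level: the 8 loci held from 2866 fragments at Tm7sf2 to 21646 at Scd2. Of the 8, Sqle and Fasn are alone at their locus.

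Other genes of the same pathways came from lists of 87 genes. Of these, 78 were detected, beside 42% of all 32052 loci, and that share stands beside the detected count of each list below. The 42 genes alone at a detected locus had a median of 366 per kb and a median ratio of -0.75. Of them, 10 were above the fitted variance, beside 27.6% of all detected loci with 1 gene. The 18 synthesis genes had a median of 592 per kb. Acat2, which joins acetyl-CoA units, had 737 per kb and a ratio of -1.79. The 6 other sterol enzymes had 5 detected.

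SREBP processing and turnover had 11 of 11 genes detected and a median of 670.4 per kb over 6 genes. Pgrmc1, a sterol-binding membrane protein, had 2729 per kb. Erlin1 had the widest spread of this list for its level, with a ratio of 0.50. Sterol uptake and movement had 14 of 14 detected and a median of 323 per kb over 9 genes. The lysosomal sterol carrier Npc2 had 878 per kb and Osbp, a lipid exchanger, had 569.

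Sterol export, oxysterols and esters had 10 of 12 genes detected and a median of 259 per kb over 4 genes. Cyp27a1, a sterol hydroxylase, had 572 per kb, and Nr1h2, an oxysterol receptor, had 398 per kb with the low ratio of -2.60. The exporter Abca1 had a ratio of 0.59. Other fatty acid genes had 27 of 31 detected and a median of 279 per kb over 15 genes. The elongation cycle enzymes Hacd3, named Ptplad1 in the annotation, and Tecr had 2216 and 1917 per kb, above Elovl6 and Fasn. Elovl4, an elongase of very long chains, had 519 fragments with a CV of 0.529 and a ratio of 1.85. Glycerolipid synthesis and storage had 11 of 13 detected and a median of 147 per kb over 6 genes, with the droplet coats Plin3 at 448 and Plin2 at 263 per kb. Dgat2, which makes triglyceride, had a CV of 0.49 and a ratio of 1.13.

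**Figure D5:**
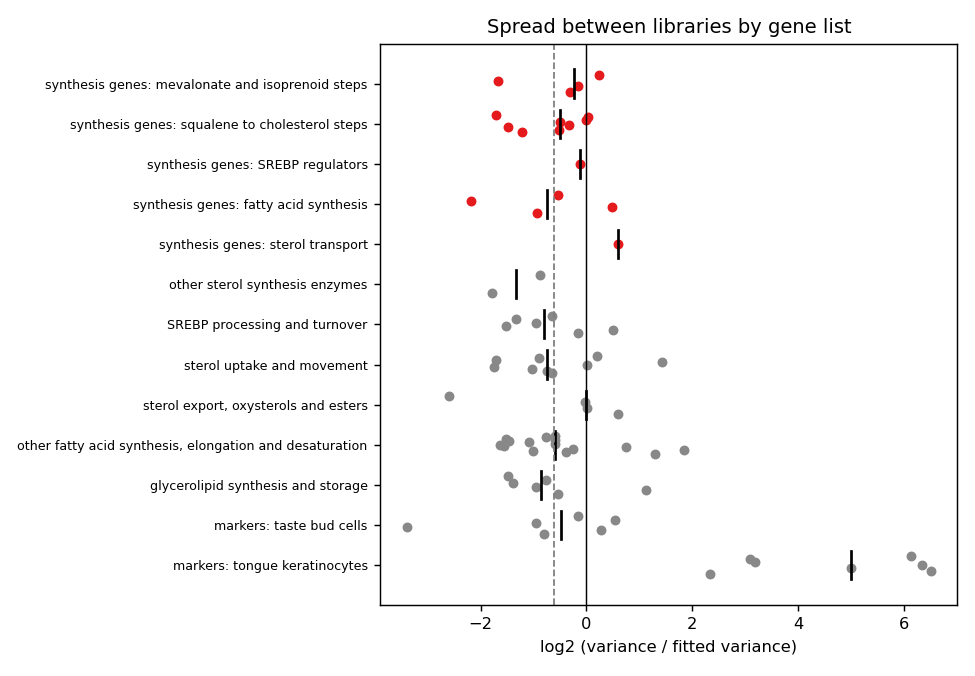
Log2 ratio of variance to fitted variance of each detected gene alone at its locus, by gene list. Red points are synthesis genes by role, grey points other lists, short bars the list medians, the dashed line the median of -0.62 over all such loci and the solid line equality. Synthesis genes reach at most 0.59, and tongue keratinocyte markers run from 2.34 to 6.51.

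Markers of other cells that the dissection could hold were read beside these values. All 7 tongue keratinocyte markers were detected, from Ivl at 74.3 to Krt6a at 41906 fragments, beside 42% of all 32052 loci. Their CVs ran from 0.513 to 3.40 and their median ratio was 5.0. Of the 7, 7 were above the fitted variance, beside 27.6% of detected loci with 1 gene. The highest CV among the 18 synthesis genes, 0.271 for Pmvk, was below the lowest CV of these markers. Whether this epithelium adds to the levels of the synthesis genes was not tested.

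Fat cells and sebaceous glands are known for high lipid synthesis. The detected counts of their markers and of gland markers stand beside the same 42% of all loci. Of 6 adipocyte markers, 2 were detected, Lep at 10.6 fragments and Plin4 at 305 in a shared locus. Adipoq and Cidec were listed at 0 compatible fragments, with 85.5 and 0.561 in total, and Plin1 stood at 0.147. Of 6 sebaceous markers, the 2 detected, Awat2 at 45.8 and Far2 at 2353 fragments, lie in loci shared with other coding genes. Mogat2 stood at 2.64, and Mc5r, Awat1 and Elovl3 were listed at 0 compatible fragments. Of 6 markers of von Ebner and minor salivary glands, 3 were detected. Amy1 had 1469.9 fragments at a locus shared with the coding gene Rnpc3, and Muc5b, alone at its locus, had 58.4. Dmbt1 lies in a locus of 44 genes with 36079 fragments, which cannot be assigned to any of them. Bpifa2 was listed at 0, and Lpo and Bpifb1 stood at 1.38 and 3.66 fragments. Whether gland cells add to the levels of the synthesis genes was not tested.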

How the data were processed

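Sequencing covered 21 libraries, 7 in each group per the labels. The submitters' processing notes name Trimmomatic, FastQC, TopHat, Bowtie2, Cufflinks and Cuffdiff, with no versions, and GRCm38.p4 as the build. The authors deposited transcripts merged over libraries and a variance model table of Cuffdiff form, per the file headers. Deposited levels in it are a signal: size-factor-scaled fragments of a locus, averaged by the authors, with variances and a fitted variance. Counting settings and strand were not stated, so overlapping and antisense genes of a locus cannot be told apart.

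All 960228 exons of the annotation were joined to their locus by position, and genes by symbol, 4 of them through an older one. A gene was detected at a mean of 10 or more compatible fragments. Lengths per kb are merged exons of the gene. The running median spans 101 loci. Set sizes used a relative tolerance of 0.0001. The planned limma contrast could not be run because the 3 conditions hold identical values. The members and lists were chosen with earlier results of these data known. Named were all members and, per list, the 2 genes highest per kb and the 1 with the highest variance ratio. Some genes that the rule names are not reported here. Gpam, Fads2, Me1, Scd3 and Scd4 were chosen after their values were seen. Steps were tested on simulated data. Promoters are from RefSeq (GRCm38.p6). Alternatives were other detection levels, length models, total fragments, shared loci, a running median and other motif forms. Versions were Python 3.11.15 with numpy 2.4.6 and pandas 2.3.3, and matplotlib 3.10.9 for figures.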

Additional observations from a re-analysis of the deposited data

How the results depend on the processing

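All 29 genes remained detected at minimums of 1, 50 and 500 compatible fragments and by total fragments. At the minimum of 500, 6816 of all 32052 loci were detected. Shares of all loci at the minimums of 1 and 50 were not computed. Restricted to loci with 1 gene, 18 were left, because 11 lie in shared loci. With the running median as reference, the number above it rose from 4 to 12 and the median log2 ratio from -0.41 to 0.28, or to 0.25 with total fragments. Adding shared loci gave 6 genes above the fitted variance and a median of -0.54. The median over 29 genes was 656 per kb, 805 with the longest transcript as length, 676 by total fragments and 592 over single-gene loci. In the medians over 29, the 11 shared loci enter with all fragments of the locus over the exon length of the synthesis gene alone. The longest transcript moved 6 of 18 levels per kb by more than 1 SD of the gene between libraries, total fragments moved 1, that of Sc5d, and both running medians moved all 18 ratios. The median compatible share was 98.3% with shared loci added, against 98.6%. The sterol response core was found in 3 genes, and in 2 by each of the other 2 motif forms. No paired analysis was possible because the table holds no value per library. For the same reason no library could be left out, and depth limits per library could not be given.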

Other observations

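Several lipid genes outside the synthesis genes had few fragments that match annotated transcripts. Gpam, the acyltransferase that opens glycerolipid synthesis, had 38.3 compatible of 837 total fragments, a share of 4.57%, and 2832 bases of its GENCODE M21 exons are not in the merged annotation. Fads2, a desaturase of polyunsaturated fatty acids, had 75.5 of 388 fragments, a share of 19.4%, with 1787 such bases. The levels of these genes by compatible fragments are therefore far below those by total fragments, while Sc5d was the only synthesis gene alone at its locus with a share under 95%.

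The desaturase family was uneven in level per kb. By compatible fragments, Scd3 had 7.94 and Scd4 had 1.48 per kb, beside 3970 at the Scd2 locus and 322 for Scd1. Scd4 had 5.57 compatible fragments, under the detection minimum, but 28.1 in total, a share of 19.8%. Scd3 had 27.5 compatible of 45.1 total fragments, a share of 61.1%. Me1, the malic enzyme that supplies NADPH for fatty acid synthesis, had 1666 fragments with a CV of 0.486 and a ratio of 2.70 at a locus shared with 3 noncoding genes, against 1.15 for the highest ratio among the 29 synthesis loci.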
